A study of Mus musculus with 4 samples.

Results

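Tropomyosins and troponins are the proteins that lie along actin filaments. The 8 genes described here are the 4 tropomyosins of the mouse (Tpm1, Tpm2, Tpm3 and Tpm4) and 4 troponins (Tnnt2, Tnnt3, Tnni3 and Tnnc1). All were chosen by name from the 25965 genes of the table, with earlier results of these data known. They were measured by RNA sequencing in 4 libraries of vascular smooth muscle cells, all from 1 group. The cells came from the medial layer of aortas of healthy male mice aged 8 to 14 weeks, freed with collagenase and elastase, grown in DMEM with serum and passaged 3 to 5 times. No treatment or genotype was compared, and the labels do not say whether each library came from its own animals or culture, so the spread between libraries may be technical. Libraries are numbered 1 to 4 as names only.

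Tropomyosin is a coiled-coil dimer that binds end to end along the actin filament and sets which other proteins, myosin among them, can reach it. Tropomyosin genes can give several proteins through alternative promoters and exons, some typical of muscle and others found in most cells. In the annotation used here (GENCODE M21), Tpm1, Tpm2 and Tpm3 had 16, 4 and 7 distinct coding sequences, and Tpm4 had 1. Troponin is the calcium switch of heart and skeletal muscle and has a tropomyosin-binding subunit (troponin T), an inhibitory subunit (troponin I) and a calcium-binding subunit (troponin C). Smooth muscle contraction is switched instead mainly through phosphorylation of myosin, with caldesmon and calponin as the thin filament's own regulators.

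The libraries held 40342561 to 56793195 reads on genes, with library 3 the smallest. Levels are the authors' log2 values, scaled to each library and not divided by gene length, and a log2 value of 0 stood for 22 to 30 reads. The median absolute log2 difference between libraries ran from 0.29 (libraries 3 and 4) to 0.76 (libraries 1 and 3). On this scale the detected genes as a whole lay higher in library 1 and lower in library 3, with median-ratio shifts of 0.32 and -0.28 on the log2 scale. Values called centred below have these shifts taken out. All 6 smooth muscle markers were detected, with a summed log2 level of 11.82 to 13.99. Of 7 markers of adventitial fibroblasts 6 were detected, with summed levels of 9.97, 9.65, 7.26 and 7.24 in libraries 1 to 4.

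The 4 tropomyosin genes are close in coding sequence, which matters for reads that could come from more than 1 of them. A stretch of 60 bases from the aligned coding sequences (GENCODE M21, GRCm38) is shown for each, with the 15 columns that are not the same in all 4 in capitals.
Tpm1 (chr9:67036003-67036062, minus strand, exon 4): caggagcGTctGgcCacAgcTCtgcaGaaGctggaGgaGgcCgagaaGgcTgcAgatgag
Tpm2 (chr4:43519619-43519678, minus strand, exon 3): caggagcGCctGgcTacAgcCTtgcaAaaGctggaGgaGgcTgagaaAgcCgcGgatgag
Tpm3 (chr3:90086512-90086571, plus strand, exon 3): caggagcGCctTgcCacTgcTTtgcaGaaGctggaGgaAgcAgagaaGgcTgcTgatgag
Tpm4 (chr8:72138654-72138713, plus strand, exon 2): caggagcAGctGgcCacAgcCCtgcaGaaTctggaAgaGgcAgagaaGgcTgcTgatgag
Over the whole coding sequence, identity ran from 65.2% (Tpm2 and Tpm4) to 76.1% (Tpm1 and Tpm3). The longest run of identical bases between transcripts of any pair was 37, for Tpm1 and Tpm2, and no stretch of 50 bases was shared between them. Outside the 4 genes, 11.7% of the 50-base stretches of Tpm4 transcripts also occurred in Gm7809, a gene without a value here.

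All 8 genes were detected, with detection set at a log2 value of 0 or more in every library, a level that 47.4% of all genes in the table reached. The genes were chosen with earlier results of these data known, so this count is not a test. Of all 8 troponin genes in the table, 5 were detected. An SD above 0.5 was found for 6 of 8 (Tpm1, Tpm2, Tpm3, Tnnt2, Tnnt3 and Tnni3), against 40.5% of detected genes. None had an SD above 1, against 5.80%. After centring, 6 of 8 again had an SD above 0.5, with Tnnc1 in place of Tnni3, against 30.7% of detected genes. An SD above 1 was then found for 3 of 8 (Tpm1, Tpm2 and Tnnt3), against 4.19%. Dropping 1 library ended the variable call of Tpm3 (without library 1), Tnnt2 (without library 3) and Tnni3 (without library 2 or 4).

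**Figure D1:**
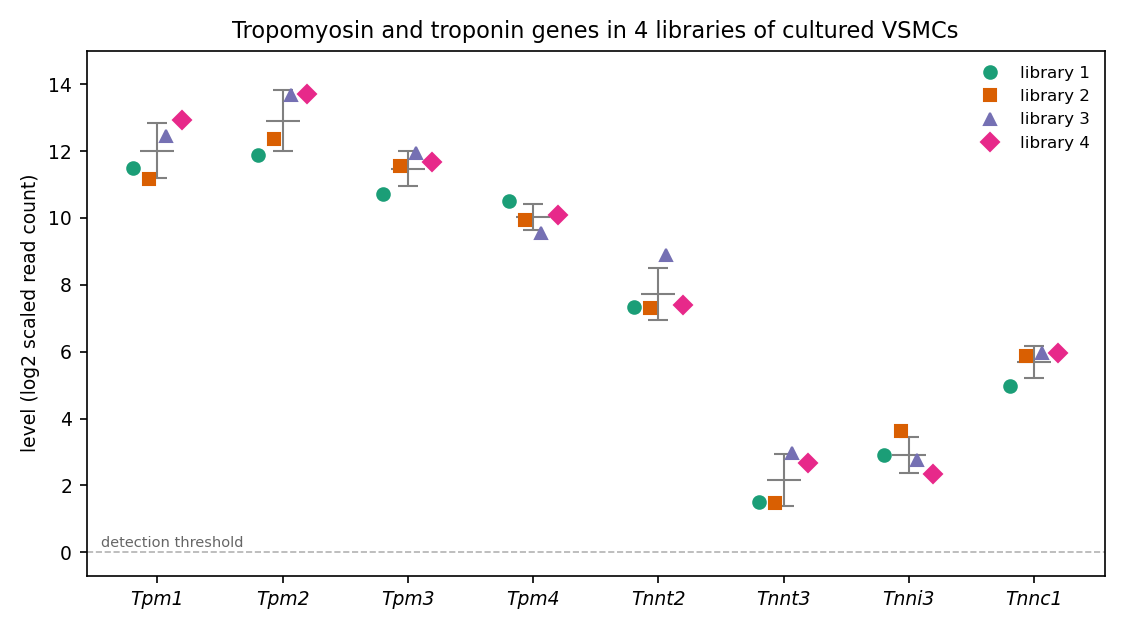
Log2 level of each of the 8 genes (deposited scale, not divided by length) in libraries 1 to 4, with the mean and SD as grey bars and the detection threshold dashed. Tpm2 reached 13.70 and Tnnt3 stayed between 1.47 and 2.98.

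Tpm2, which encodes the beta-tropomyosin of muscle, lies on chromosome 4 (43514711 to 43523765, minus strand). Its log2 levels were 11.89, 12.37, 13.67 and 13.70 in libraries 1 to 4 (12.91 ± 0.92, SD, n = 4), from 110667 to 390750 reads. Libraries 3 and 4 were nearly equal and both above libraries 1 and 2, with a 3.49-fold span that came to 5.20-fold after centring.

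Tpm1, the gene of alpha-tropomyosin, lies on chromosome 9 (67022590 to 67049406, minus strand). It had 11.49, 11.16, 12.46 and 12.94 (12.01 ± 0.83, SD, n = 4). Libraries 3 and 4 were again the higher ones, by a 3.42-fold span from library 2 to library 4 and 3.95-fold after centring. GENCODE lists 21 transcripts for it, 16 of them coding, and gene-level reads do not tell muscle from non-muscle forms.

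Tpm3, whose products include both a slow-muscle and widespread cytoskeletal tropomyosins, lies on chromosome 3 (90072649 to 90100902, plus strand). Its levels were 10.73, 11.54, 11.95 and 11.67 (11.47 ± 0.52, SD, n = 4). Library 1 was the low one, 2.33-fold below library 3 and 3.54-fold below it after centring.

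Tpm4, a cytoskeletal tropomyosin of non-muscle cells, lies on chromosome 8 (72134975 to 72153142, plus strand). It had 10.51, 9.94, 9.55 and 10.09 (10.02 ± 0.40, SD, n = 4). On the deposited scale it was highest in library 1 and lowest in library 3, but after centring the span shrank from 1.95-fold to 1.29-fold, with 10.19, 9.83, 9.83 and 10.18. Libraries 1 and 4 were nearly equal on the centred scale, as were libraries 2 and 3. Tpm1, Tpm2 and Tpm3 were higher in libraries 3 and 4 than in library 1 on both scales.

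Reads of Tpm4 as a share of those of Tpm1 were 50.6%, 42.7%, 13.2% and 13.9%, a ratio within each library that no scaling alters. Reads of Tpm1 and Tpm2 together were 2.12, 1.91, 3.98 and 4.87 times those of Tpm3 and Tpm4. Both ratios split libraries 1 and 2 from libraries 3 and 4. The summed fibroblast markers given above split the same libraries, lower in 3 and 4, and the summed smooth muscle markers were 12.95, 11.82, 13.49 and 13.99. Their part in these ratios was not tested. In these bulk libraries, fewer cells of a type and less RNA per cell cannot be told apart.

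Those ratios are in reads, not per length, and show only how libraries differ. The levels of single genes were ordered per kilobase of exon. On that scale the mean log2 level was 11.37 for Tpm2, 9.32 for Tpm1, 8.88 for Tpm4 and 8.87 for Tpm3. Tpm2 was above Tpm1 by 2.05 ± 0.39 (SD, n = 4) and above Tpm3 by 2.50 ± 0.54 on the log2 scale, in 4 of 4 libraries. Signs were flipped exactly over the 4 libraries in a two-sided permutation test, and both pairs had the smallest p that 4 libraries allow (adjusted p = 0.152 over 28 pairs), so no pair could pass 0.05. The neighbours below Tpm2 did not differ beyond their spread on this length: Tpm1 minus Tpm4 was 0.44 ± 1.03, and Tpm3 minus Tpm4 was -0.01 ± 0.91. Tpm1 was below Tpm4 in libraries 1 and 2 and above it in libraries 3 and 4. With the median coding transcript as length, Tpm1 and Tpm3 were above Tpm4 in 4 of 4 libraries, by 2.37 ± 1.03 and 2.36 ± 0.91. Of the 28 pairs of the 8 genes, 23 kept 1 sign in all 4 libraries.

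As a share of the 4 tropomyosins per kilobase of exon, Tpm2 made up 48.6%, 58.5%, 70.7% and 67.1% in libraries 1 to 4. Tpm1 made up 16.5%, 11.4%, 13.7% and 17.8%, and Tpm3 10.4%, 15.8%, 10.2% and 7.86%. Tpm4 made up 24.6%, 14.3%, 5.34% and 7.24%. The Tpm2 share was thus the highest in each library, and the share of Tpm4 was lower in libraries 3 and 4 than in libraries 1 and 2. The size of the shares rested on the length used: with the median coding transcript as length, mean shares were 45.4% for Tpm2, 24.5% for Tpm1, 24.5% for Tpm3 and 5.58% for Tpm4.

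**Figure D2:**
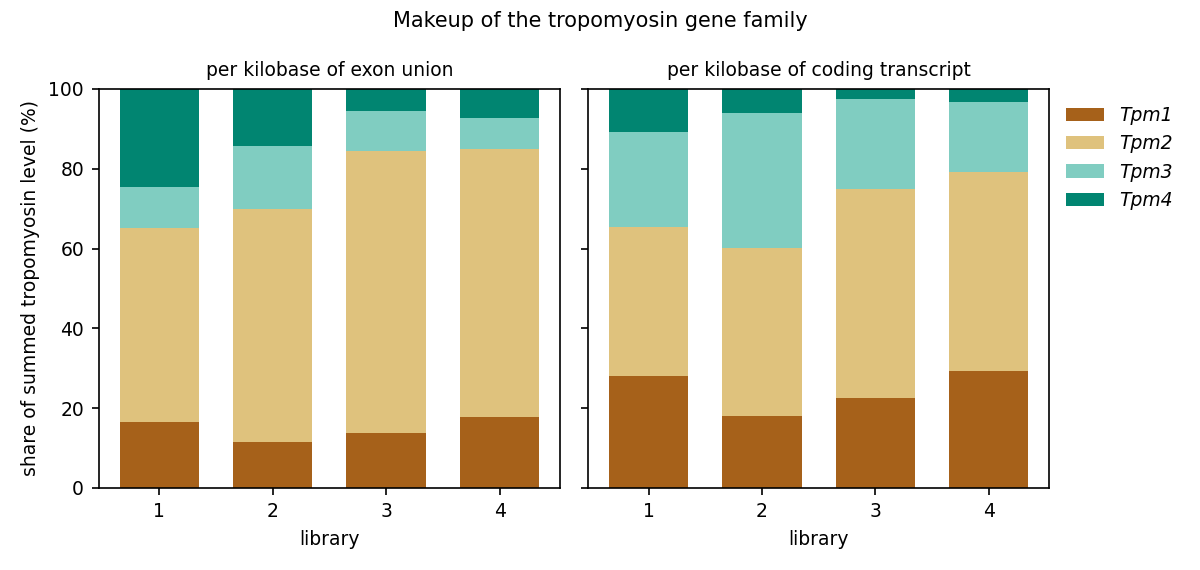
Share (%) of each tropomyosin gene in the summed tropomyosin level per kilobase of exon, for libraries 1 to 4. Per kilobase of exon union (left) Tpm2 covers 48.6% to 70.7% and Tpm4 5.34% to 24.6%; on the right the length is the median coding transcript.

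Tpm3 has a near-identical copy, Tpm3-rs7, on chromosome 14 (start 113314608), annotated with 1 exon where the matching Tpm3 transcript has 8. Over 747 aligned coding bases 744 were identical, and 23.2% of the 50-base windows of Tpm3 transcripts also occurred in the copy. A stretch of 60 coding bases holds all 3 substitutions, shown in capitals.
Tpm3 (chr3:90079799-90079858, exon 1): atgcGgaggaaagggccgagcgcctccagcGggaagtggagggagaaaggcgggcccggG
Tpm3-rs7 (chr14:113314743-113314802): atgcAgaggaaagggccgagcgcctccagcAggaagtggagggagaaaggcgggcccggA
Tpm3-rs7 had log2 levels of 6.05, 6.96, 7.13 and 6.73, and its reads came to 3.91%, 4.19%, 3.53% and 3.26% of those of Tpm3 (3.72% ± 0.406, SD, n = 4). Both genes were lowest in library 1 and highest in library 3. The split between them is uncertain, since the sources used here do not say how reads matching both were assigned.

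Tnnt2, which encodes cardiac troponin T, lies on chromosome 1 (135836386 to 135852260). It had log2 levels of 7.34, 7.30, 8.89 and 7.40 (7.73 ± 0.77, SD, n = 4), from 4545 to 10403 reads. Library 3 stood above the other 3 libraries, which were nearly equal. After centring the span was 4.43-fold, with library 3 still the highest at 9.17.

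Tnnc1, the gene of the troponin C shared by heart and slow skeletal muscle, lies on chromosome 14 (31208312 to 31211729, plus strand). It had 4.98, 5.88, 5.97 and 5.96 (5.70 ± 0.48, SD, n = 4). Library 1 was the low one and the other 3 were nearly equal. The span of 1.99-fold came to 3.01-fold after centring. The gene lies wholly inside Nisch, on the opposite strand, with no shared exon bases. Nisch had 9.60, 8.94, 8.16 and 8.64, and reads of Tnnc1 ran from 4.08% of its reads in library 1 to 21.9% in library 3. Whether counting used strand is not given in the sources used here, and the part of Nisch in the level of Tnnc1 was not tested.

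Tnni3, which encodes cardiac troponin I, and Tnnt3, which encodes troponin T of fast skeletal muscle, were near the low end of detection. Tnni3 (chromosome 7, 4518305 to 4524229, minus strand) had 2.90, 3.64, 2.75 and 2.33 (2.91 ± 0.55, SD, n = 4), from 148 to 361 reads. Library 2 was its highest and library 4 its lowest. It shares 86 exon bases, 4.17% of its exons, with Dnaaf3 on the same strand. GENCODE M21 lists no other gene over Tnni3, and the deposited values have no gene named Dnaaf3. There the interval of Tnni3 overlaps that of 6030429G01Rik (4522933 to 4532453), at 3.63, 3.83, 2.81 and 3.05. Both names may stand for the same gene, and reads of Tnni3 may be shared with it. Tnnt3 (chromosome 7, 142498836 to 142516009) had 1.51, 1.47, 2.98 and 2.66 (2.15 ± 0.78, SD, n = 4), from 80 to 186 reads. Like Tpm1 and Tpm2 it was higher in libraries 3 and 4 than in libraries 1 and 2. In the table its interval overlaps that of Gm14492 (142491074 to 142506771), at 3.37, 3.06, 3.04 and 3.01. The gene that GENCODE M21 lists over Tnnt3, Prr33, is on the opposite strand with no shared exon bases. No 50-base stretch of Tnnt3 transcripts occurred in another gene. The gene models used for counting are not given, so sharing of its reads was not settled.

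**Figure D3:**
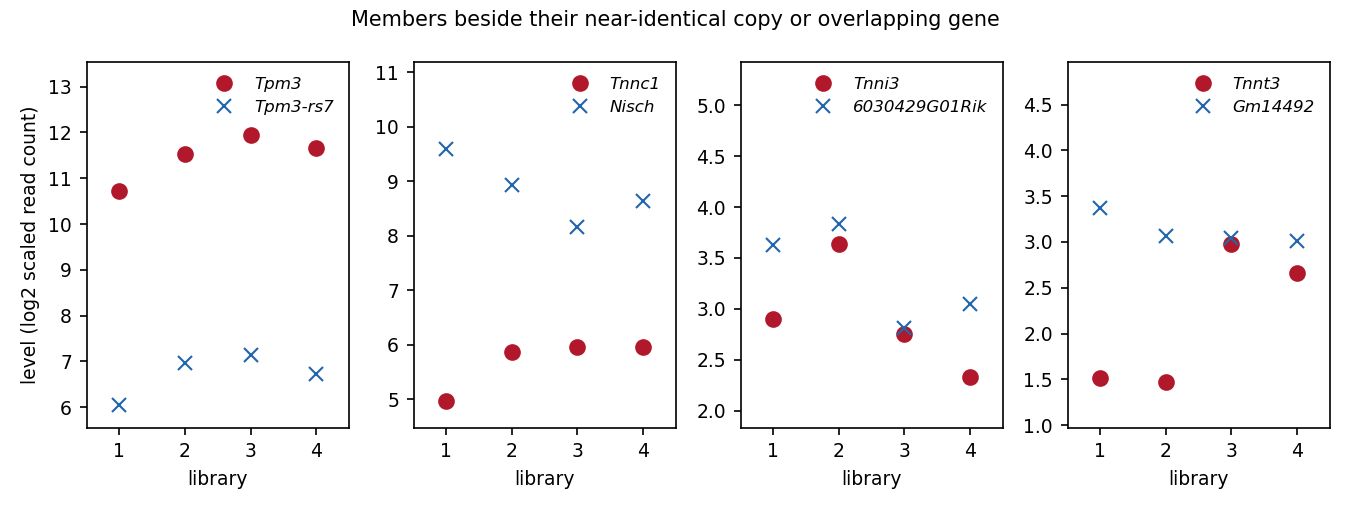
Log2 level (deposited scale, not divided by length) in libraries 1 to 4 of Tpm3, Tnnc1, Tnni3 and Tnnt3 (circles), each beside its near-identical copy or the gene whose interval it overlaps (crosses). Tpm3-rs7 is lowest in library 1 and highest in library 3, as Tpm3 is, while Nisch is highest in library 1, where Tnnc1 is lowest.

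Of the other 4 troponin genes, 1 was detected: Tnnt1, troponin T of slow skeletal muscle, at 0.87, 1.76, 0.97 and 1.05. Tnni1 had 13 to 87 reads a library, Tnni2 19 to 52 and Tnnc2 8 to 45. Troponin T and I genes lie near each other in the mouse genome, and on chromosome 7 Tnnt1 was the gene before Tnni3. On chromosome 1 Tnni1 (135783065 to 135810989) lies before Tnnt2, with Lad1 between them. Tnni2 (chromosome 7, 142441808 to 142444410) lies before Tnnt3, with Gm14492 directly before Tnnt3. All 8 troponins together took 0.0108%, 0.0125%, 0.0303% and 0.0130% of the summed reads on genes. The 4 tropomyosins took 0.509%, 0.601%, 1.28% and 1.32%. These are shares of reads, not divided by length.

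Per kilobase of exon the troponin order was Tnnc1 (mean log2 level 5.64), Tnnt2 (4.78), Tnni3 (1.86) and Tnnt3 (1.49). Tnnt2 minus Tnnc1 was -0.87 ± 0.73, with Tnnt2 above Tnnc1 in library 3 only (exact permutation p = 0.25, adjusted p = 0.292), and Tnnt3 minus Tnni3 was -0.37 ± 1.23. Neither pair kept 1 sign in all 4 libraries. Tnnt2 lay above Tnnt3 by 3.29 ± 0.56 and above Tnni3 by 2.92 ± 1.05, in 4 of 4 libraries. Within the troponins Tnnc1 took 51.3%, 63.9%, 45.4% and 64.6%, and Tnnt2 35.3%, 22.8%, 45.9% and 23.5%. With the median coding transcript as length this order turned, with mean shares of 65.4% for Tnnt2 and 25.1% for Tnnc1. Reads of Tnni3, the inhibitory partner, were 4.61%, 7.94%, 1.42% and 2.97% of those of Tnnt2, without division by length.

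Because 3 of these troponins are best known from the heart, other genes of striated muscle were read beside them. Of 12 cardiac markers 1 was detected, Myl4, an atrial myosin light chain, at 5.08, 5.77, 6.41 and 6.18. Myh6 and Pln had no reads in any library, and Myh7 had reads in library 1 only, 16 in all. The cardiac markers summed to log2 levels of 5.18, 5.84, 6.45 and 6.24. Of 12 skeletal muscle markers 2 were detected, Acta1 and Actn3, while Myh4 and Myod1 had no reads. Their sum was 4.21, 4.12, 8.48 and 9.16, carried in libraries 3 and 4 by Acta1, skeletal alpha-actin. Of 6 genes typical of both striated muscles, Des and Ldb3 were detected, and the 6 summed to 4.70 to 6.09.

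The filament that tropomyosin binds was read from a list of 6 actins, of which 5 were detected and 5 were variable (47.4% of all genes were detected, and 40.5% of those were variable). Acta2, smooth muscle alpha-actin, had 12.04, 10.76, 12.77 and 13.16, and the cytoplasmic Actb had 12.05, 12.24, 14.02 and 13.81. Acta1 went from 2.79 and 2.39 in libraries 1 and 2 to 8.45 and 9.14 in libraries 3 and 4. Cardiac Actc1 had 5 reads in library 4 and none in the others. As with Tpm1 and Tpm2, the levels of Acta2, Actb and Acta1 were higher in libraries 3 and 4 than in libraries 1 and 2, also after centring.

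Over 7 lists of thin filament and related genes, 28 of 36 were detected (77.8%, against 47.4% of all genes). The lists too were chosen with earlier results of these data known. Of these 28, 11 were variable on the deposited scale (39.3%), near the 40.5% of all detected genes. After centring, 30.7% of all detected genes were variable, and the calls for these lists were not repeated on that scale. Among tropomodulins and leiomodins, which cap or nucleate filament ends together with tropomyosin, 4 of 7 were detected and 2 were variable. Tmod3 had 7.90, 7.20, 6.70 and 7.37, and Lmod1, the leiomodin of smooth muscle, had 8.15, 6.93, 8.93 and 9.50. Among the smooth muscle regulators, all 4 were detected and 1, calponin Cnn1, was variable, at 6.47, 5.36, 8.19 and 8.40. Caldesmon, Cald1, had 12.30, 11.17, 11.51 and 11.77.

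Of the factors that take filaments apart, all 4 were detected and 1 was variable: Dstn, destrin, at 10.58, 10.39, 11.41 and 11.60. All 7 splicing regulators linked to tropomyosin exons were detected. On the deposited scale none had an SD above 0.5, against 40.5% of all detected genes. This count was not repeated after centring, which lowers library 1, raises library 3 and can widen the spread of a gene. Ptbp1, which represses muscle exons of tropomyosin genes, had 8.49, 8.42, 8.16 and 8.36, and Rbpms, a splicing regulator of smooth muscle, had 5.32, 4.76, 5.85 and 5.67. Of serum response factor and its coactivators, which drive many actin cytoskeleton genes, 3 of 4 were detected and 2 were variable. These 2 went opposite ways on the deposited scale. Srf had 6.48, 6.17, 7.46 and 7.94, and the coactivator Mkl2 had 5.52, 4.82, 4.30 and 4.49. Mkl1, not variable, had 6.61, 6.06, 5.91 and 6.09. Myocd was not detected, with 12 to 53 reads.

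**Figure D4:**
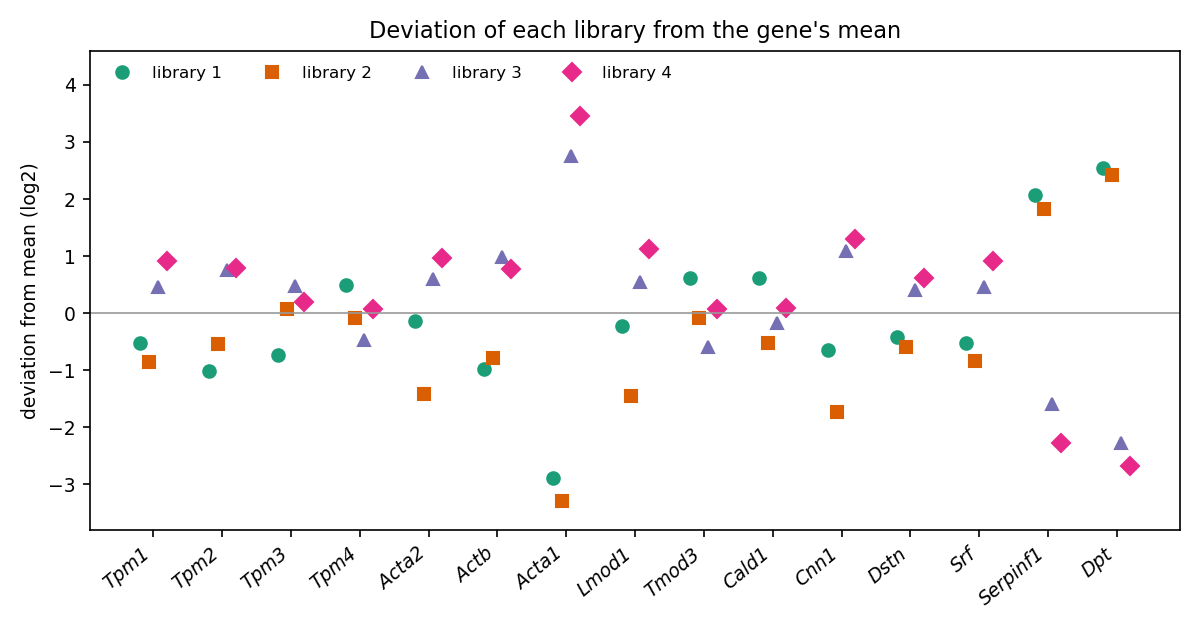
Deviation (log2) of each library from the gene's own mean, for the tropomyosins, 9 of the listed actin and filament genes and the fibroblast markers Serpinf1 and Dpt, 1 point per library. Tpm1, Tpm2, the 3 actins, Lmod1, Cnn1, Dstn and Srf lie higher in libraries 3 and 4 than in libraries 1 and 2, and Serpinf1 and Dpt lie lower there.

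The genes nearest in pattern were found among 10926 detected genes by the root mean square difference of deviations from the mean, in log2 units over only 4 libraries. For Tpm1 these were Srf (0.00738), Pde4d (0.0485), Pkp1 (0.0704) and Ppp1r1b (0.0930). Srf had 6.48, 6.17, 7.46 and 7.94, in step with Tpm1 in each library. Tpm2 was 160th in that order, at 0.337, and Acta2 181st.

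For Tpm2 the nearest were Cd34 (0.0868), Hip1r (0.0947), Ifi27l2a (0.0952) and Gmppb (0.107), with Tnnt3 45th at 0.247. For Tpm3 they were Bax (0.0214), Fis1 (0.0307), Fau (0.0371) and Tomt (0.0374). For Tpm4 they were Immp1l (0.0171), Rfx7 (0.0197), Zbtb22 (0.0264) and Tmem104 (0.0275). For Tnnt2 the nearest, Zfp423, was at 0.123. The neighbours of Tnnt2 on chromosome 1 did not share its single high library: Lad1 had -1.54, -0.85, 1.61 and 2.25, and Pkp1 had 6.55, 6.03, 7.43 and 7.94.

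**Figure D5:**
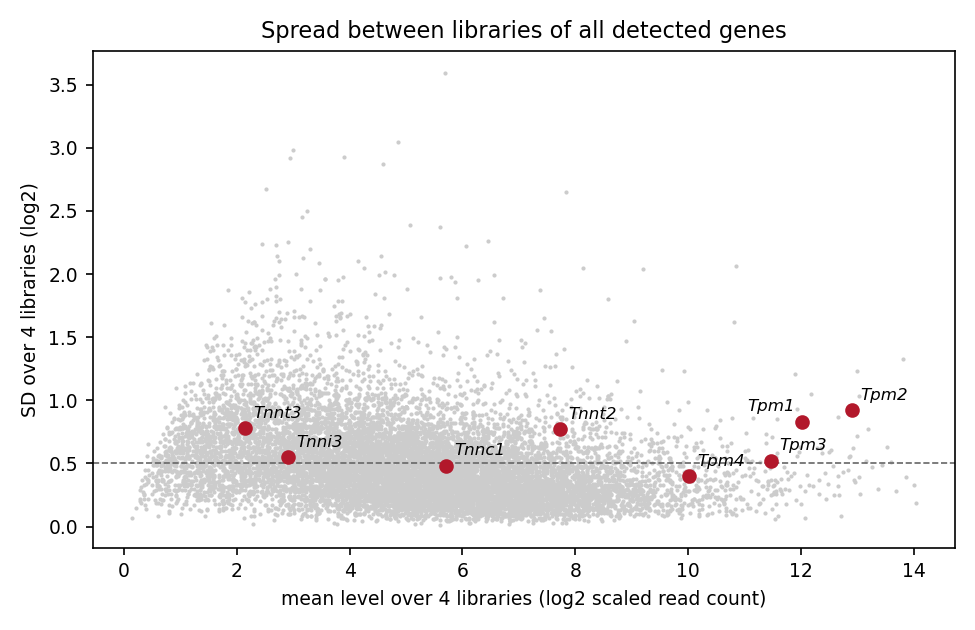
SD over 4 libraries against mean log2 level for all detected genes (grey) and the 8 thin filament genes (named), with the threshold of 0.5 dashed. Tpm2 has the highest SD of the 8, 0.92, and Tpm4 the lowest, 0.40, beside a median of 0.43 over all detected genes.

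Upstream sequence was read in the 250 bases before RefSeq start sites (GRCm38.p6), for 7 of the 8 genes in 9 windows. The MCAT element CATTCC is known as a site of TEAD factors in muscle genes and was searched on both strands, as CATTCC or GGAATG. It was in 1 window each of 3 genes, against 12.6% of 32851 windows of the same length. Such shares are per window, and Tnnt2 and Tpm3 had more than 1 window each. The 3 stretches are shown with the element in capitals.
Tnnt2 (chr1:135836295-135836324, plus strand): tctcctgctgcaCATTCCtccctccgcggg
Tpm1 (chr9:67049252-67049281, minus strand): tggctgtcctaaGGAATGcggtcgcccccc
Tnnc1 (chr14:31208242-31208271, plus strand): tgggctgggctgGGAATGtagcaggaggtg
The element began 27, 56 and 58 bases before the start. The CArG box, the site of serum response factor, was in none of the 7 genes' windows, against 1.47% of all windows. With 1 mismatch allowed it was in windows of 3 genes (1 window of Tnnt2, both of Tpm3 and 1 of Tpm1), against 18.6% of all windows. TATAAA was in none, against 7.59%. These matches describe letters only.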

How the data were processed

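Per the labels' protocols, libraries were made from 4 ug of total RNA with a stranded mRNA kit (TruSeq Stranded mRNA). The submitters' processing notes name GRCm38 as the build, and Trim Galore, cutadapt and TopHat as tools. How reads were counted, by which gene models and whether by strand, is not given in the sources used here. The authors deposited log2 values of 25965 genes in 1 table. Judged from the values, whole reads were multiplied by 1 constant per library and not divided by gene length, and a gene with no reads was set to 0.9 read. Dividing by the value of 1 read gave whole numbers within 0.05 read for 99.8% to 99.9% of values, and 40342561 to 56793195 reads on genes per library. These totals may hold a fragment more than once.

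The 4 columns were matched to the libraries by name, and all belonged to 1 group. The members and lists were chosen with earlier results of these data known. Detection needed a log2 value of 0 or more in every library. Variable means an SD over the libraries above 0.5. Levels per kilobase used the union of all exons of a gene in GENCODE M21 (GRCm38). Pairs of members were compared within libraries by flipping signs exactly over libraries (a two-sided permutation test), with Benjamini-Hochberg adjustment over 28 pairs. Besides the members, the genes named were those of the fixed lists, the 4 genes nearest in pattern to each of 5 members, and the neighbours in the table. Of the genes nearest to Tnnt2 only the nearest is reported here. Likeness of pattern was the root mean square difference of deviations from the mean. Coding sequences were cut from the GENCODE M21 transcripts and aligned with MAFFT; start-site windows are from RefSeq on GRCm38.p6. Alternatives were other thresholds, median-ratio size factors, the median coding transcript as length, no division by length, and leaving out each library. Adding reads of Tpm3-rs7 to Tpm3, and the SD above 1 on the median-ratio scale, were chosen after seeing the data. Scripts were tested on simulated reads. Computation used Python 3.11.15, numpy 2.4.6, pandas 2.3.3, scipy 1.17.1 and matplotlib 3.10.9.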

Additional observations from a re-analysis of the deposited data

Results flagged for a closer look

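In each of the 8 genes the highest and the lowest library were compared with the nearest of the others, and chance flags about 1 in 20 such groups of 4. For Tnnt2, library 3 stood apart from the rest at a log2 level of 8.89, with a gap to the next library that took 0.932 of the whole range, above the critical value of Dixon's test. For Tnnc1, library 1 stood apart at the low end with 4.98, and the gap took 0.911 of the range. After centring on all detected genes the gaps were 0.777 of the range for Tnnt2 and 0.698 for Tnnc1, and neither passed the critical value.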

How the results depend on the processing

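Detection of 8 of 8 members held under the other thresholds, the other scaling and without each library. Of 8 members, 6 were called variable, 5 or 6 without each library in turn, 6 under median-ratio size factors (with Tnnc1 in place of Tnni3), and 0 with an SD above 1. With that stricter SD and median-ratio size factors together, chosen after seeing the data, 3 were called (Tpm1, Tpm2 and Tnnt3). Shares within the families depended on the length used. With the median coding transcript the mean shares were 24.5% for Tpm1, 45.4% for Tpm2, 24.5% for Tpm3, 65.4% for Tnnt2 and 25.1% for Tnnc1. Without division by length they were 26.0%, 48.1%, 18.2%, 74.0% and 19.0%. The same settings turned the difference of Tnnt2 minus Tnnc1 to 1.43 and 2.03, and that of Tpm3 minus Tpm4 to 2.36 and 1.45. Leaving out each library in turn, Tpm3 minus Tpm4 ran from -0.33 to 0.40 (without library 1) and Tnnt3 minus Tnni3 from -0.73 to 0.10 (without library 2). The cause was not tested. The other 25 pairs kept the sign of their mean difference under these settings. No paired analysis was possible because all libraries belonged to 1 group, so no replicate numbers were shared between groups. Depth limits Tnnt3 and Tnni3 most, with 80 to 361 reads a library.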

Other observations

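The genes beside Tpm1 and Tpm2 encode the talins, large adaptors that link integrins to actin: Tln2 was the next gene of the table after Tpm1 on chromosome 9, and Tln1 the next after Tpm2 on chromosome 4. Tln2 had log2 levels of 7.98, 6.88, 5.49 and 5.78 in libraries 1 to 4, and was thus higher in libraries 1 and 2, where Tpm1 was lower. The same held after centring on all detected genes, with 7.67, 6.77, 5.77 and 5.88. Tln1 had 11.21, 10.49, 10.21 and 10.86, a spread that shrank to 10.89, 10.39, 10.49 and 10.95 after centring, while Tpm2 spanned 2.38 on that scale.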
